A study of Mus musculus with 8 samples.

Results

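The transcripts described here are 10 genes that mark the fibroblasts of the endometrial stroma and their progenitor-like forms, chosen by symbol: *Pdgfra*, *Pdgfrb*, *Thy1*, *Cd34*, *Pi16*, *Dpt*, *Tcf21*, *Nt5e*, *Vim* and *Dpp4*. They were looked up by Ensembl gene identifier among the 52325 genes of the deposited count table. All 10 were found, and all 10 were among the 18174 genes with enough counts to be tested. Laser capture took the endometrium out of frozen sections of the uterus in 4 WT and 4 Thra1PV/+ females, and the age of these mice is not given in the sources used here. Thra1PV/+ mice carry, in every cell, 1 knock-in *Thra* allele with the PV frameshift, which encodes a dominant negative thyroid hormone receptor TRα1, and mice of both genotypes were synchronised to metestrus. The endometrium was captured as a whole, epithelium with stroma, so the comparison asks how much of the captured RNA was fibroblast RNA in each mouse and whether the genotypes differed in it. In such bulk samples, fewer fibroblasts and less of a transcript per fibroblast cannot be told apart.

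The stroma of the endometrium is built of fibroblasts that lie between the epithelium and the muscle of the uterine wall, answer to estrogen and progesterone and decidualise when an embryo implants. Fibroblasts next to the lumen and those near the muscle differ in their genes, and a subset along vessels and tissue borders, marked by *Pi16*, *Dpp4* and *Cd34*, is regarded as progenitor-like in many tissues. None of the 10 genes belongs to fibroblasts alone. *Cd34* is also made by endothelium, *Pdgfrb* by pericytes, *Thy1* by T cells, *Vim* by most mesenchymal cells and leukocytes, and *Nt5e* and *Dpp4* by some epithelia and lymphocytes.

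The promoter sequences of 4 of these genes are given without any base of an annotated exon, to show the start regions behind the transcripts measured here, with 30 bases of *Nt5e*, whose window lies in an annotated exon. They are RefSeq sequences of GRCm38.p6, written 5′ to 3′ on the strand of the gene, and RefSeq promoters were matched for 8 of the 10 genes. *Pdgfra* and *Dpt* were chosen because their levels followed each other across the libraries, and *Tcf21*, *Dpp4* and *Nt5e* because they had the smallest p-values. Capitals mark, on either strand, the TATA box core TATAAA, the GC box of Sp and Krüppel-like factors GGGCGG, the E-box of basic helix-loop-helix factors CAGCTG or the nuclear receptor half-site AGGTCA, which thyroid hormone receptors also bind.
Pdgfra (chr5:75152001-75152250, plus strand): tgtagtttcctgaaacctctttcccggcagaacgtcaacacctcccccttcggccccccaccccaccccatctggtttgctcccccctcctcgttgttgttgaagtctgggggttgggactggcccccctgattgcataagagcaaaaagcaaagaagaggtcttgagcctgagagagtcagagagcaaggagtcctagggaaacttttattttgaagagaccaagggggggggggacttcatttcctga
Dpt (chr1:164796413-164796643, plus strand): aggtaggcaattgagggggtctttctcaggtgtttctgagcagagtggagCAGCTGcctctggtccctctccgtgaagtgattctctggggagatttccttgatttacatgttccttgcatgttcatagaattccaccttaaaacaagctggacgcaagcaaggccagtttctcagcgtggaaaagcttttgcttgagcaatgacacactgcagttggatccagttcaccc
Tcf21 (chr10:22820175-22820393, minus strand): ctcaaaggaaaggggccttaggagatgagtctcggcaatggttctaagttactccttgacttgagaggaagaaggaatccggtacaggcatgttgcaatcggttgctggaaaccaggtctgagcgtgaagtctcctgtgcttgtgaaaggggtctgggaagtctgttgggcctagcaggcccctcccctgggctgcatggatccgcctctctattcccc
Dpp4 (chr2:62412232-62412481, minus strand): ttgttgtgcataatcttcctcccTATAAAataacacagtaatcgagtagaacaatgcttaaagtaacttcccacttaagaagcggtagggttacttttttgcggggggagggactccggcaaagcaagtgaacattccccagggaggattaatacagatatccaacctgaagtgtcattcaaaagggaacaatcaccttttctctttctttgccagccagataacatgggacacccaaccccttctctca
Nt5e (chr9:88327579-88327608, plus strand): ctgtccCCGCCCCGCCCtcctctactccgc
The 30 bases of *Nt5e* hold 2 GC boxes that share a base, read on the other strand, and the whole 250 bases before its RefSeq start hold 4 in 2 overlapping pairs, at a GC content of 72.0%. The E-box of *Dpt* and the TATAAA of *Dpp4* were the other matches among these 5 promoters, whose GC content was otherwise 43.6% to 54.4%. These matches began 200 and 227 bases before the RefSeq starts. In the window of *Vim*, which is not printed, TATAAA began 32 bases before the RefSeq start. Over 32851 RefSeq promoters of the same length, 12.4% held the TATA box core, 14.0% the nuclear receptor half-site, 32.7% the GC box and 13.0% the E-box. The nuclear receptor half-site was in none of the 8 matched windows, which says only that these letters are not in them.

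Library totals ranged from 48791602 to 59818887 estimated counts. *Thra*, whose counts do not separate the PV from the WT transcript, lay between 45.8 and 127 CPM (counts scaled to each library's TMM-normalized total) in Thra1PV/+ and between 47.4 and 110 CPM in WT libraries. Transcripts of squamous epithelium separated the genotypes: 10 genes such as *Krt5*, *Krt13* and *Krt15* summed to 2836 to 4385 CPM in Thra1PV/+ and to 2.42 to 64.4 CPM in WT libraries, and edgeR's quasi-likelihood test called 8 of the 10 higher. That count was 5 without any 1 of the Thra1PV/+ libraries or WT library 2, 3 without WT library 4, and 2 when at least 10 counts were required in every library. That filter drops genes with few WT counts, such as *Krt14* and *Dsc3* with 0 CPM in WT library 1. *Krt5* and *Trp63* alone of the 10 were left to test under it, and both were called. Smooth muscle transcripts set 1 library apart. The 10 smooth muscle genes summed to 13537 CPM in WT library 1, where the other WT libraries had 590 to 1184 CPM and the Thra1PV/+ libraries 151 to 708 CPM. Of the 10, edgeR's test called 0, 9 had an unadjusted p under 0.05, and DESeq2 called 1. Of 6 mesothelial genes, *Msln*, *Lrrn4* and *Upk1b* did not pass the count filter, and edgeR and DESeq2 called 0 (0 with an unadjusted p under 0.05 in edgeR). Of the 3 tested, *Krt19* is also on the list of simple epithelial genes and *Wt1* on that of stromal transcription factors. *Upk3b*, the remaining gene, had a mean of 0.897 CPM in Thra1PV/+ and 1.39 CPM in WT libraries, so these genes say little about mesothelium. The part that squamous or smooth muscle RNA had in the marker values was not tested.

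The summed markers took a small share of each library, and that share differed more between mice of 1 genotype than between the genotypes. In Thra1PV/+ endometrium the 10 genes held 0.176% of the counts in library 1 (95% Wilson interval 0.175% to 0.177%), 0.0271% in library 2 (0.0267% to 0.0276%), 0.0479% in library 3 (0.0473% to 0.0485%) and 0.0543% in library 4 (0.0537% to 0.0549%). In WT endometrium they held 0.137% (0.136% to 0.138%), 0.215% (0.214% to 0.217%), 0.0803% (0.0796% to 0.0811%) and 0.0776% (0.0768% to 0.0783%) in libraries 1 to 4. The intervals cover counting error only. Thra1PV/+ library 1 thus lay among the WT libraries and above 3 of them, and the other 3 Thra1PV/+ libraries lay below all WT libraries. The mean share was 0.0763% ± 0.0674 (SD, n = 4) in Thra1PV/+ and 0.127% ± 0.0646 (SD, n = 4) in WT endometrium, a difference smaller than the spread within either genotype.

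Epithelial transcripts ran the other way across the libraries. A list of 12 simple epithelial and gland genes, among them *Epcam*, *Krt8* and *Wfdc2*, summed to 2834 CPM in Thra1PV/+ library 1 and to 2904 and 3966 CPM in WT libraries 1 and 2, the 3 libraries richest in fibroblast markers. In the other 5 libraries it summed to between 4951 and 8088 CPM. Markers over epithelial genes gave a ratio of 0.556 in Thra1PV/+ library 1 and 0.0458 to 0.104 in Thra1PV/+ libraries 2 to 4. In WT libraries 1 to 4 the ratio was 0.463, 0.50, 0.118 and 0.105. A list of 19 other fibroblast genes, such as *Dcn* and *Col1a1*, followed the markers instead, from 815 CPM in Thra1PV/+ library 2 to 7083 CPM in Thra1PV/+ library 1. The counts of 1 library share its total, so a larger part of epithelial RNA leaves less of that total to other transcripts. The CPM values are TMM-scaled and do not add up to a fixed total. The part that epithelial RNA had in the differences between genotypes was not tested.

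**Figure D1:**
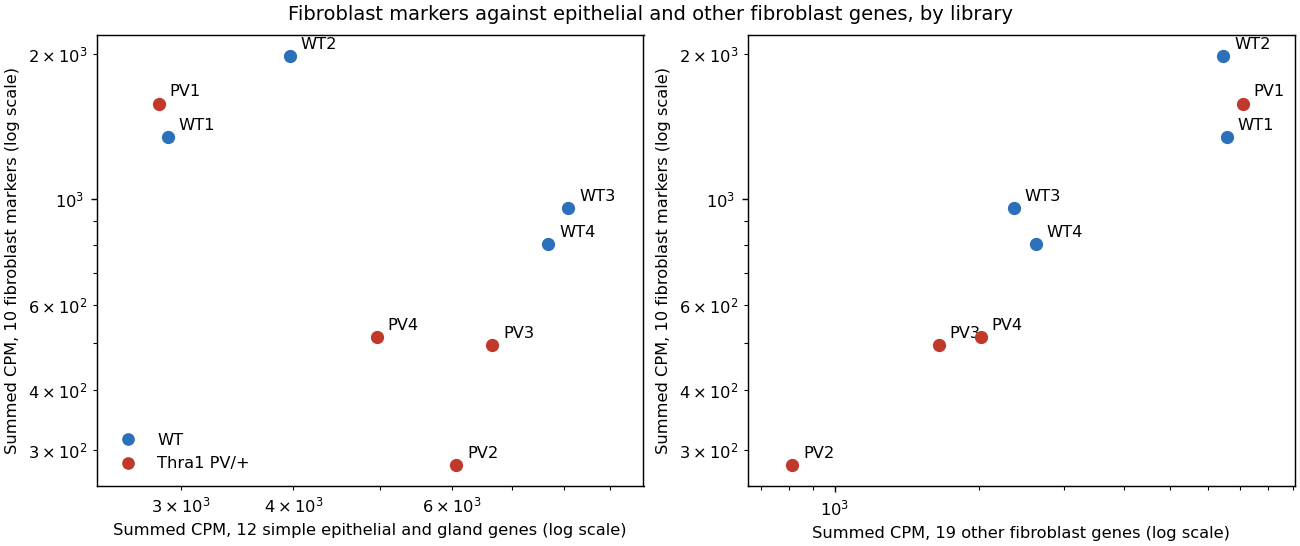
Each point is 1 library (PV1 to PV4, Thra1PV/+, red; WT1 to WT4, WT, blue), with the summed CPM of the 10 fibroblast markers on the vertical axis and that of 12 simple epithelial genes (left) or 19 other fibroblast genes (right) on the horizontal axis, all on log scales. PV1, WT1 and WT2 have high marker sums (1344 to 1983 CPM) and low epithelial sums, and on the right the points climb together from PV2 at 278 CPM.

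Of the 10 markers, edgeR's quasi-likelihood test called 0 between the genotypes (a call needed at least a 2-fold difference with adjusted p no higher than 0.1), where it called 0.066% of all tested genes as lower and 0.924% as higher, 0.99% in all. The fitted log2 fold change (Thra1PV/+ minus WT) was below 0 for 9 of the 10, against 56.8% of all tested genes, and the median was -0.93 against -0.053 over all tested genes. Without Thra1PV/+ library 1 the median was -1.67, and without WT library 2 it was -0.40. At an unadjusted p-value under 0.05, 3 of the 10 were lower (*Nt5e*, *Dpp4* and *Tcf21*), against 4.72% of all tested genes lower, 5.05% higher and 9.77% in all, and DESeq2 called 1 of them, *Nt5e*. The genotypes overlapped for 10 of 10 markers, while 2.49% of all tested genes lay wholly lower and 3.55% wholly higher in Thra1PV/+ libraries. Antisense genes overlap *Pdgfra*, *Cd34*, *Pi16*, *Dpt*, *Tcf21* and *Dpp4*, and the strand setting of the counting is not given in the sources used here, so reads of the 2 strands may be mixed in their counts. Several of the markers moved together across these libraries (16 of the 45 pairs had a Pearson r above 0.7), so the 10 are not separate measurements. The two-sided exact permutation test of mean log2 CPM over the 70 arrangements, which can go no lower than p = 0.0286, gave p-values between 0.0571 and 0.943.

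**Figure D2:**
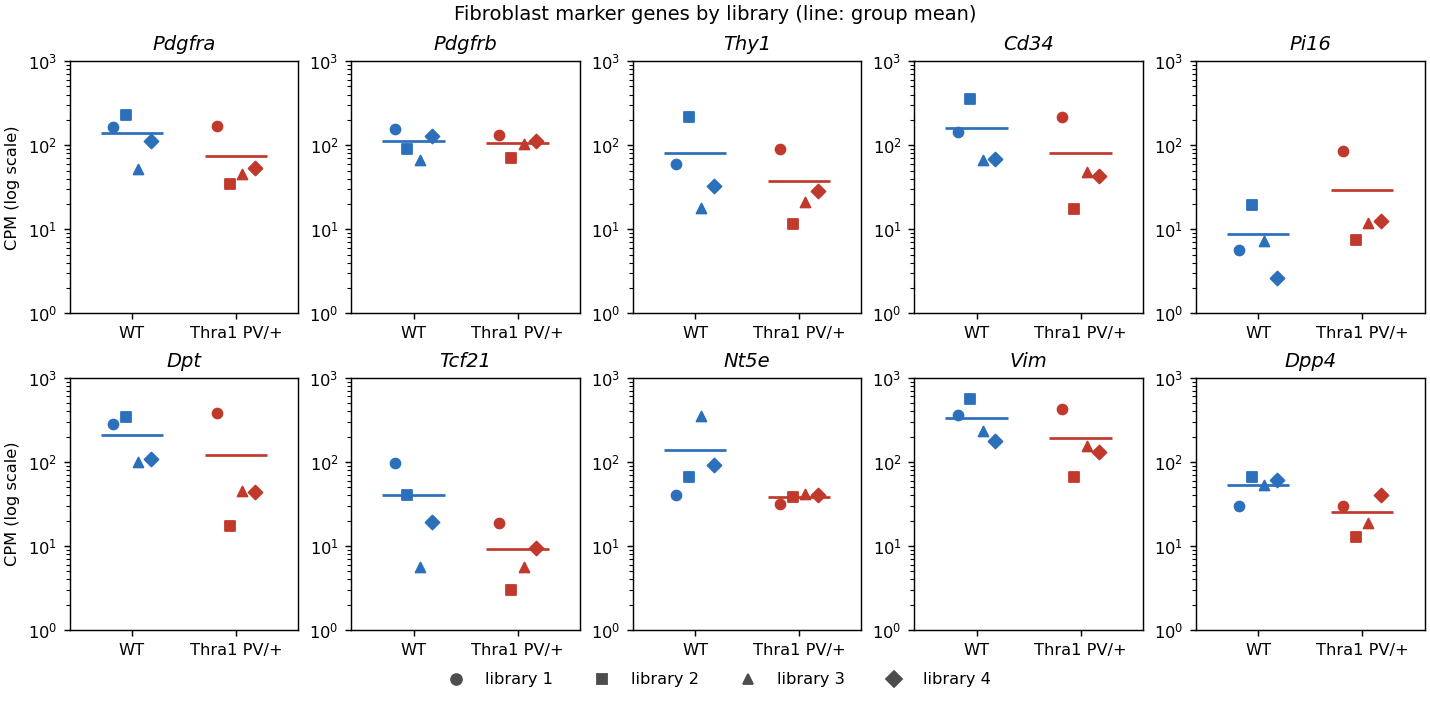
CPM of each marker (vertical axis, log scale) in WT (blue) and Thra1PV/+ (red) endometrium, with 1 symbol per library number and a line at the group mean. Thra1PV/+ library 1 (red circle) stands with the high WT libraries for *Pdgfra*, *Thy1*, *Cd34*, *Dpt* and *Vim*, while *Nt5e* is nearly level in the Thra1PV/+ libraries and peaks in WT library 3.

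The receptors for platelet-derived growth factor separate fibroblasts (*Pdgfra*) from pericytes and other mural cells (*Pdgfrb*) in many tissues. *Pdgfra* (chromosome 5 of GRCm38, 75152292 to 75198215) had 168, 34.5, 45.1 and 54.0 CPM in Thra1PV/+ libraries 1 to 4 and 163, 230, 51.4 and 113 CPM in WT libraries 1 to 4. Its Thra1PV/+ libraries 2 and 3 lay below every WT library, and library 1 was as high as the second highest of the WT libraries. The fitted log2 change was -0.89 ± 0.60 (SE; edgeR adjusted p = 0.690). Without Thra1PV/+ library 1 it was -1.60, and without WT library 2 it was -0.52.

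*Pdgfrb* (chromosome 18, 61045150 to 61085061) was the steadiest of the 10 markers, with 134, 70.6, 103 and 112 CPM in Thra1PV/+ and 156, 89.5, 67.6 and 130 CPM in WT libraries. All 4 Thra1PV/+ libraries lay within the range of the WT libraries. Its highest library had 2.31 times its lowest, where the other 9 markers spanned at least 5.22-fold. The log2 fold change was -0.078 ± 0.29 (SE; edgeR adjusted p = 0.963), and its sign changed with the library left out (-0.24 to 0.17). Across the 8 libraries its log2 CPM followed the pericyte list more closely (Pearson r = 0.84) than the list of other fibroblast genes (r = 0.60). *Pdgfrb* also had r = 0.75 with the endothelial list and 0.72 with the leukocyte list, and *Tcf21* had r = 0.81 with the pericyte list. Of the 9 pericyte genes, 7 had a fitted log2 fold change below 0, none of them called, and the median was -0.70. The other 2 rose in Thra1PV/+ endometrium by edgeR's quasi-likelihood test. *Notch3*, a receptor of mural cells, had a log2 fold change of 1.32 ± 0.17 (SE; edgeR adjusted p = 0.0181), and *Ndufa4l2*, a mitochondrial protein induced by hypoxia, had 2.79 ± 0.46 (SE; edgeR adjusted p = 0.0389). The most abundant pericyte gene, *Rgs5*, had 106 ± 87.6 CPM (SD, n = 4) in Thra1PV/+ and 172 ± 73.8 CPM (SD, n = 4) in WT endometrium. Of the Thra1PV/+ libraries, library 1 had the most *Rgs5* (234 CPM) and the least *Notch3* (38.0 CPM) and *Ndufa4l2* (17.8 CPM). It also had the lowest sum of the squamous genes (2836 CPM). Which cells the *Notch3* and *Ndufa4l2* transcripts came from was not tested. *Notch3* was called in each of the 8 fits without 1 library, and *Ndufa4l2* in 3 of them, losing its call without Thra1PV/+ library 2 or 3 or WT library 1, 3 or 4 (edgeR adjusted p up to 0.136). The log2 fold change of *Ndufa4l2* stayed between 2.55 and 3.14 over these fits.

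None of the 4 genes for the ligands of these receptors was called by edgeR or DESeq2, nor was *Pdgfrl*, a receptor-like gene, and 0 of the 5 had an unadjusted p under 0.05 in edgeR. *Pdgfc*, a ligand of PDGFRα, had the smallest p-value of the 5, with 52.1 ± 12.5 CPM (SD, n = 4) in Thra1PV/+ and 78.4 ± 31.8 CPM (SD, n = 4) in WT endometrium and a log2 fold change of -0.59 ± 0.30 (SE; edgeR adjusted p = 0.583). *Pdgfrl* had 1.48 ± 0.901 CPM against 3.27 ± 2.34 CPM.

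*Thy1* and *Cd34* encode surface glycoproteins used to sort stromal cells. *Thy1* (chromosome 9, 44043384 to 44048579) had 89.4, 11.5, 21.2 and 28.2 CPM in Thra1PV/+ and 60.4, 214, 17.9 and 33.0 CPM in WT libraries, so that WT library 2 alone stood above Thra1PV/+ library 1. Its log2 fold change of -1.11 ± 0.87 (SE; edgeR adjusted p = 0.746) became 0.037 without WT library 2 and -1.95 without Thra1PV/+ library 1. The genes of the CD3 chains of T cells, *Cd3d*, *Cd3e* and *Cd3g*, reached at most 11 CPM in any library. All 3 had an unadjusted p under 0.05 in edgeR with higher values in Thra1PV/+ endometrium (log2 fold changes of 1.39, 1.73 and 1.25; edgeR adjusted p = 0.502, 0.434 and 0.506). Other T cell genes did not all go the same way: the log2 fold change was 1.82 for *Cd4*, 0.45 for *Cd8a* and -0.83 for *Cd2* (edgeR adjusted p = 0.380, 0.901 and 0.736). The part of T cells in the *Thy1* values was not tested. *Cd34* (chromosome 1, 194938819 to 194961279) had 215, 17.2, 47.6 and 42.7 CPM in Thra1PV/+ and 142, 358, 67.6 and 68.6 CPM in WT libraries. Here 3 Thra1PV/+ libraries lay below all WT libraries, and Thra1PV/+ library 1 lay above 3 of them. Its fitted log2 change was -0.98 ± 0.84 (SE; edgeR adjusted p = 0.771), -2.10 without Thra1PV/+ library 1 and -0.18 without WT library 2. For the endothelial gene *Pecam1*, the mean was 36.4 ± 15.6 CPM (SD, n = 4) in Thra1PV/+ and 47.6 ± 17.1 CPM (SD, n = 4) in WT endometrium, and edgeR and DESeq2 called 0 of the 10 endothelial genes (0 with an unadjusted p under 0.05 in edgeR).

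*Dpt* encodes dermatopontin, a matrix protein that binds decorin and assists collagen fibril assembly. It spanned 22.2-fold within the Thra1PV/+ libraries alone, with 382, 17.2, 44.5 and 44.4 CPM, against 285, 338, 100 and 108 CPM in WT libraries (chromosome 1, 164796644 to 164824266). Thra1PV/+ library 1 was thus the highest of all 8 libraries and the other 3 were the lowest 3. The log2 fold change was -0.77 ± 0.93 (SE; edgeR adjusted p = 0.854), and without Thra1PV/+ library 1 it was -2.51 (edgeR adjusted p = 0.178). The value came nearer to 0 without Thra1PV/+ library 2, 3 or 4 (-0.40, -0.49 and -0.49) and without WT library 2 (-0.42). *Vim*, the intermediate filament of mesenchymal cells (chromosome 2, 13573927 to 13582826), had 423, 66.1, 155 and 131 CPM in Thra1PV/+ and 365, 560, 230 and 177 CPM in WT libraries. The order of libraries for *Vim* was nearly that for *Cd34*. Its log2 fold change was -0.78 ± 0.58 (SE; edgeR adjusted p = 0.730) and was -1.46 without Thra1PV/+ library 1, -0.49 without Thra1PV/+ library 2 and -0.39 without WT library 2. Of 4 other intermediate filament genes of mesenchyme and muscle, edgeR called 0, 2 had an unadjusted p under 0.05, and DESeq2 called 2. *Des* (desmin) and *Synm* (synemin) had log2 fold changes of -2.22 and -3.11 (SE 0.83 and 0.98; edgeR adjusted p = 0.434 and 0.342), and both were highest in WT library 1, the library rich in smooth muscle transcripts.

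*Tcf21*, a basic helix-loop-helix factor of mesenchyme, had the largest fitted decrease of the 10 markers, though it was not called. It had 18.6, 3.02, 5.68 and 9.39 CPM in Thra1PV/+ and 96.3, 40.6, 5.63 and 19.4 CPM in WT libraries (chromosome 10, 22817281 to 22820174). WT libraries 1, 2 and 4 lay above all Thra1PV/+ libraries, and WT library 3 lay between Thra1PV/+ libraries 2 and 3. In the fit the log2 change was -2.14 ± 0.86 (SE; edgeR adjusted p = 0.470). Without WT library 1, which had the most *Tcf21* and the most smooth muscle transcripts, it was -1.21 (edgeR adjusted p = 0.747). With the mean log2 CPM of the simple epithelial list as a covariate, an alternative chosen after seeing the data, it was -1.85 and was called (adjusted p = 0.0864), where that fit called 2.72% of all tested genes. Among 13 tested transcription factor genes of the stroma, a list that does not include *Tcf21*, edgeR and DESeq2 called 0, 0 had an unadjusted p under 0.05 in edgeR, and their median log2 fold change was -0.74. *Hoxa10* and *Hoxa11*, which pattern the uterus, had the smallest p-values of this list. *Hoxa10* had 58.4 ± 74.5 CPM (SD, n = 4) in Thra1PV/+ and 235 ± 237 CPM (SD, n = 4) in WT endometrium, and *Hoxa11* had 49.5 ± 62.0 CPM against 164 ± 148 CPM.

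*Nt5e* encodes CD73, the ectoenzyme that turns AMP into adenosine. Of the 10 markers, *Nt5e* had the lowest median Pearson r with the others over the 8 libraries (-0.13), though its r with *Dpp4* was 0.57. In Thra1PV/+ endometrium it had 31.5, 37.9, 41.7 and 40.3 CPM, and in WT endometrium 40.7, 66.6, 355 and 91.1 CPM (chromosome 9, 88327197 to 88372092). The Thra1PV/+ libraries were within 1.32-fold of each other, and 3 of the 4 lay below all WT libraries. WT library 3, which was the lowest WT library for *Pdgfra*, *Thy1* and *Tcf21*, was the highest for *Nt5e*. Its log2 fold change was -1.87 ± 0.63 (SE; edgeR adjusted p = 0.366) and -0.78 without WT library 3. DESeq2 called it (adjusted p = 0.0765), as it called 3.91% of the genes it tested. Of 10 other genes of the adenosine pathway, 1 was called: *Adora2b*, the low-affinity A2B adenosine receptor, rose with a log2 fold change of 2.72 ± 0.55 (SE; edgeR adjusted p = 0.0973). *Adora2b* had 8.28 ± 4.71 CPM (SD, n = 4) in Thra1PV/+ and 1.25 ± 0.661 CPM (SD, n = 4) in WT endometrium, and it was not called in any of the 8 fits that left out 1 library (edgeR adjusted p up to 0.261), where its log2 fold change stayed between 2.27 and 3.08.

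*Dpp4*, a dipeptidyl peptidase of the cell surface (CD26), had 30.1, 12.8, 18.6 and 40 CPM in Thra1PV/+ and 30.2, 66.8, 53.6 and 61.0 CPM in WT libraries (chromosome 2, 62330073 to 62412231). Only Thra1PV/+ library 4 reached above the lowest WT library. The log2 fold change was -1.06 ± 0.38 (SE; edgeR adjusted p = 0.403), and it lay between -1.37 and -0.84 in the fits without 1 library, the narrowest such range among the 9 markers other than *Pdgfrb*.

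*Pi16*, a peptidase inhibitor family gene of adventitial fibroblasts, was the marker with a positive fitted change. It had 84.2, 7.41, 12 and 12.5 CPM in Thra1PV/+ and 5.72, 19.5, 7.24 and 2.62 CPM in WT libraries (chromosome 17, 29317680 to 29330593, the deposited identifier being 1 version older than the annotation). Thra1PV/+ library 1 stood above the other 7 libraries, and the other 3 lay within the WT range. The log2 fold change of 1.72 ± 0.90 (SE; edgeR adjusted p = 0.600) was 0.33 without Thra1PV/+ library 1. DESeq2 gave no p-value for it. Among 16 other genes of progenitor-like and adventitial fibroblasts, edgeR and DESeq2 called 0, and 2 had an unadjusted p under 0.05 in edgeR. Limma with voom and sample quality weights called 1, as did edgeR without Thra1PV/+ library 1. Their median log2 fold change was -0.11. *Mfap5*, a microfibril protein, had 41.8 ± 29.0 CPM (SD, n = 4) in Thra1PV/+ and 104 ± 36.0 CPM (SD, n = 4) in WT endometrium. *Clec3b*, which encodes tetranectin, had 0.426 ± 0.225 CPM against 2.55 ± 3.85 CPM.

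**Figure D3:**
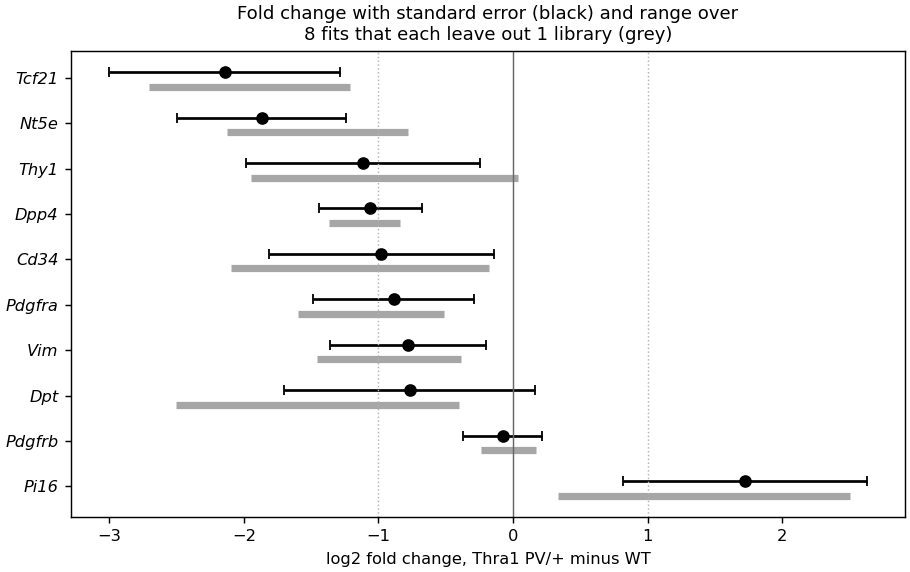
Log2 fold change (Thra1PV/+ minus WT) of the 10 markers with its standard error from edgeR's quasi-likelihood fit (black), and the range of the 8 fits that each leave out 1 library (grey bar below); dotted lines mark a 2-fold change. *Pi16* lies to the right of 0 and *Pdgfrb* near it, and the grey bar of *Dpt* reaches -2.51.

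Relative to the summed counts of the 10 markers, *Pi16* was the marker whose genotypes did not overlap. It made up 5.35%, 2.66%, 2.42% and 2.43% of the marker counts in Thra1PV/+ and 0.426%, 0.985%, 0.757% and 0.325% in WT libraries, a mean of 3.21% ± 1.42 (SD, n = 4) against 0.623% ± 0.304 (SD, n = 4), or 5.16 times as much. So the 3 Thra1PV/+ libraries with few marker counts, whose *Pi16* CPM lay within the WT range, also lay above all WT libraries by this measure. Of all tested genes, 6.20% did not overlap on the same scale, 6.09% higher and 0.11% lower, so that 1 of 10 markers is near the background. Scaled to the 19 other fibroblast genes, an alternative chosen after seeing the data, *Pi16* had a log2 fold change of 2.11 ± 0.76 (SE; edgeR adjusted p = 0.135), where the median of all tested genes moved to 1.08 and 3.97% of them were called. *Vim* kept the steadiest part, 26.8% ± 3.28 (SD, n = 4) against 25.4% ± 2.84 (SD, n = 4), and *Nt5e* the least steady, from 2.0% in Thra1PV/+ library 1 to 37.1% in WT library 3.

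**Figure D4:**
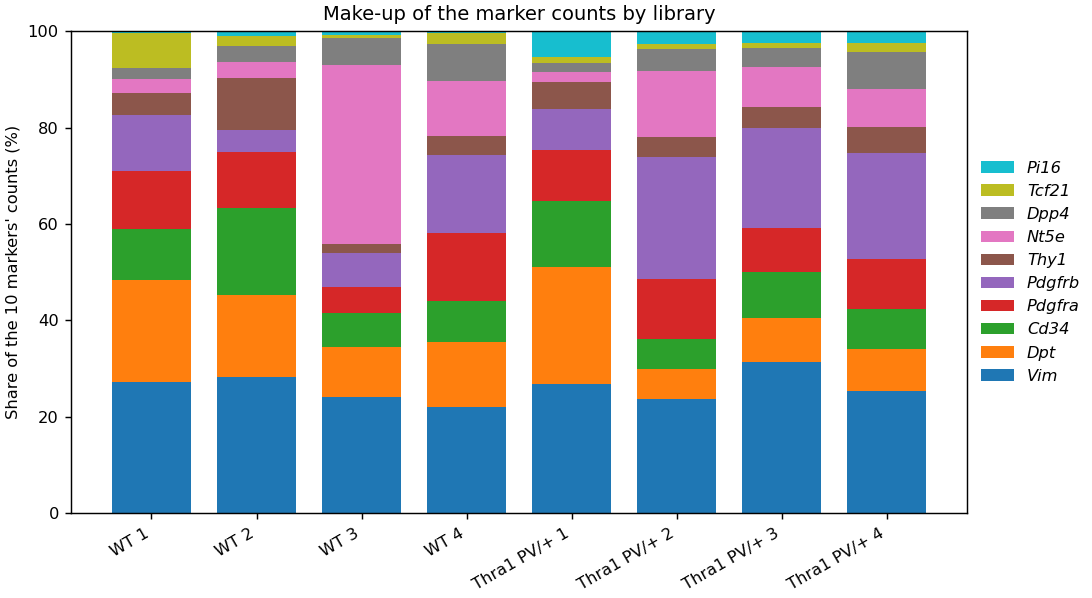
Stacked bars give the percent of the 10 markers' counts held by each marker (vertical axis) in each library (horizontal axis). *Vim* takes 22.0% to 31.4% in every library, *Pi16* (top) is at least 2.42% in Thra1PV/+ and at most 0.985% in WT libraries, and *Nt5e* fills 37.1% of WT library 3.

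Across the 8 libraries, *Pdgfra*, *Thy1*, *Cd34*, *Dpt*, *Vim* and *Tcf21* followed each other. The Pearson r of log2 CPM ranged from 0.78 to 0.99 over the 15 pairs of these 6 genes, which were grouped after the values were seen, and from 0.69 to 0.99 with the genotype means removed. *Nt5e* had r between -0.51 and 0.57 with the other 9 markers, and 6 of the 45 pairs, each with *Nt5e* or *Pi16*, were below 0. *Pi16* had a median r of 0.31 with the others, and of 0.75 with the genotype means removed. These values describe 8 libraries that share their depth and cell make-up between genes. With the mean log2 CPM of the other fibroblast genes, r was highest for *Dpt* at 0.97 and lowest for *Nt5e* at 0.040. With the simple epithelial list, r lay between -0.76 and -0.56 for *Pdgfrb*, *Pi16* and the group of 6, at -0.011 for *Dpp4* and at 0.54 for *Nt5e*.

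**Figure D5:**
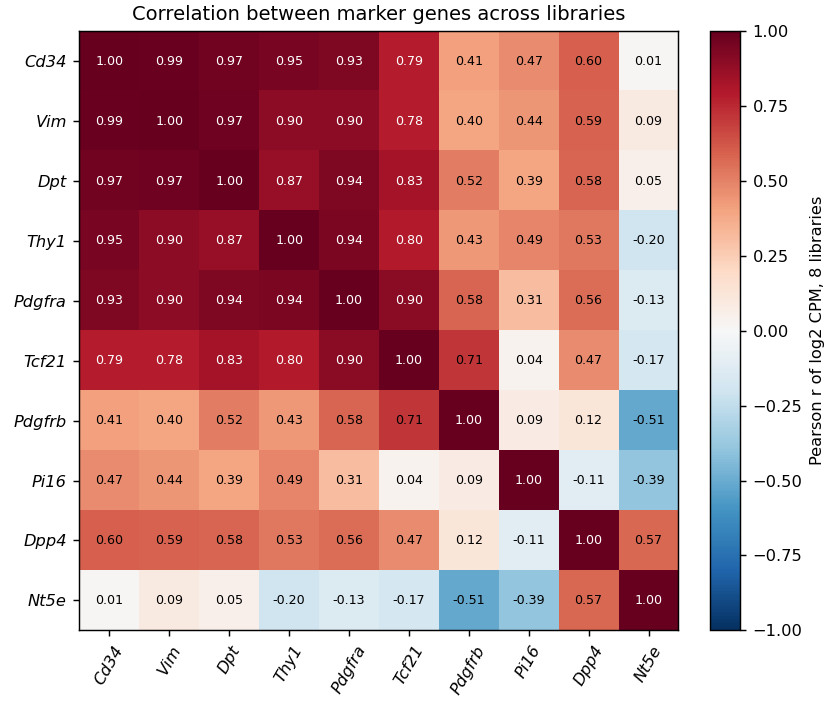
Pearson r of log2 CPM between each pair of markers over the 8 libraries (colour and number). *Cd34*, *Vim*, *Dpt*, *Thy1*, *Pdgfra* and *Tcf21* form a block at 0.78 or more, and the row of *Nt5e* holds values from -0.51 to 0.57.

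Levels were compared between genes per kilobase of merged exon. Over the 8 libraries *Dpt* had 95.7 and *Vim* 55.5 CPM per kilobase, followed by *Thy1* (19.9), *Pdgfrb* (19.7), *Cd34* (16.4), *Pdgfra* (10.7), *Tcf21* (10.6), *Nt5e* (10.2), *Dpp4* (6.20) and *Pi16* (2.97). Among neighbours in this order, *Vim* lay above *Thy1* in 8 of 8 libraries, and *Pdgfra* above *Tcf21* and *Dpp4* above *Pi16* in 7 of 8. *Pdgfrb* lay above *Cd34*, and *Cd34* above *Pdgfra*, in 6 of 8, and *Dpt* above *Vim* in 5 of 8. *Nt5e* and *Dpp4* took either order equally often (*Nt5e* higher in 4 of 8). Means over unlike libraries set the rest of the order: *Thy1* lay above *Pdgfrb* in 2 of 8 and *Tcf21* above *Nt5e* in 3 of 8 libraries. On the deposited TPM values 3 of the 10 markers kept their rank (*Thy1*, *Dpp4* and *Pi16*, the last at 10.3 TPM). There *Vim* came first at 192 TPM and *Dpt* second at 122 TPM, the reverse of their order per kilobase.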

How the data were processed

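The authors trimmed paired-end reads of stranded mRNA libraries with Trimmomatic and ran salmon for mouse genome mm10. The authors deposited estimated counts per gene, not normalized, and TPM values, whose distribution is nearly the same in every library, as after quantile normalization. The salmon version is not given in the sources used here, and 1 column of the TPM table that belongs to no sample was left out. Estimated counts were rounded. Genes passing filterByExpr (minimum count 10, minimum total 15) went into TMM scaling and edgeR 4.0.16 (quasi-likelihood, genotype as the only term, Benjamini-Hochberg over all tested genes) in R 4.3.3, and log2 CPM used a prior count of 2. The fit was first tested on simulated counts, and limma 3.58.1 and DESeq2 1.42.0 served as alternatives. Positions and exon lengths are from GENCODE M21 (GRCm38). Identifiers without a symbol held at most 0.00897% of a library. The study gives 4 mice of each genotype, and each library was read as 1 mouse, though the labels name no animals. The p-values measure the spread between these libraries.

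The 10 markers, the lists and the tests were chosen with earlier results of these data known, and genes of the other lists were named by call, by smallest p-value or, for other cell types, by abundance (*Cd2*, *Cd3d*, *Cd3e*, *Cd3g* and *Cd8a* were named after their values were seen). Of the alternatives, 4 were chosen after seeing the data.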

Additional observations from a re-analysis of the deposited data

Results flagged for a closer look

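The log2 CPM of each marker, its share of the marker counts and the summed share, in the 4 libraries of a genotype, were screened for a library far from the rest by Dixon's test (its gap to the next value as a part of the range). Of 42 groups screened, 3 passed the 95% critical value, where chance, at about 1 in 20, gives 2.1. *Pi16* made up 5.35% of the marker counts in Thra1PV/+ library 1, where the other 3 Thra1PV/+ libraries had 2.42% to 2.66% (ratio 0.917). *Dpt* made up 24.2% in the same library, against 6.19% to 9.0% (ratio 0.845). *Tcf21* made up 1.82% in Thra1PV/+ library 4, against 1.09% to 1.18% (ratio 0.876).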

How the results depend on the processing

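The markers were refitted under 23 alternatives. DESeq2 called 1 marker as lower (*Nt5e*), the fit with the epithelial covariate, chosen after seeing the data, called 1 (*Tcf21*), and an unadjusted p-value under 0.05 passed 3 in the main fit, so the count moved from 0 in these settings. With that covariate, and also without Thra1PV/+ library 1, *Pdgfra*, *Cd34*, *Dpt* and *Vim* passed the unadjusted level as well, all lower. Without WT library 2, *Tcf21* and *Dpp4* no longer passed it, and *Pi16* passed it as higher. The share of all tested genes passing it in these fits was not counted. No marker was called as higher in any of the 23. The median log2 fold change of the markers ranged from -1.67 to -0.40 over the fits without 1 library, was -1.68 without library 1 of both genotypes and was -0.24 scaled to the other fibroblast genes, where the median of all tested genes was 1.08. The fitted change of *Pdgfrb* turned positive without Thra1PV/+ library 2 (0.072), WT library 1 (0.17) or WT library 4 (0.0080), in a range from -0.24 to 0.17 over the fits without 1 library, and without library 1 of both genotypes (0.027) and scaled to the other fibroblast genes (0.95, both chosen after seeing the data), and its difference of mean log2 CPM by library size only was 0.037. *Thy1* turned positive without WT library 2 (0.037), in a range from -1.95 to 0.037 over those fits. Calls over all tested genes ranged from 81 (at least 10 counts in every library, or without Thra1PV/+ library 3) to 702 (DESeq2) beside 180, were 80 without Thra1PV/+ library 2 and WT library 3 together (chosen after seeing the data), and were 311 with voom weights, 82 with the replicate block, 721 scaled to the other fibroblast genes and 495 with the covariate. Replicate numbers gave no pairing: deviations of same-numbered libraries correlated at 0.27, -0.44, 0.34 and -0.16, not every library correlated best with its own number, and with the replicate block 0 markers were called (median log2 fold change -1.0). The cause of these shifts was not tested.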

Other observations

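Of 12122 other genes whose mean log2 CPM was 2 or higher, the 6 whose log2 CPM followed the mean standardized level of the 10 markers most closely over the 8 libraries were *Slc35b4*, *Igfbp6*, *Fbln5*, *Fbn1*, *Itgb3* and *As3mt*, with Pearson r between 0.98 and 0.99. *Igfbp6* encodes a binding protein of insulin-like growth factors, *Fbln5* fibulin-5 of elastic fibres and *Fbn1* fibrillin-1 of microfibrils. *Igfbp6* had 242, 9.25, 32.8 and 57.2 CPM in Thra1PV/+ and 300.1, 296, 65.4 and 91.4 CPM in WT libraries 1 to 4. *Fbn1* had 79.6, 5.32, 11.7 and 14.0 CPM in Thra1PV/+ and 70.5, 80.9, 20.03 and 24.3 CPM in WT libraries. For both genes Thra1PV/+ library 1 was near WT libraries 1 and 2, and the other Thra1PV/+ libraries lay below all WT libraries. None of the 6 was called (edgeR adjusted p between 0.632 and 0.824).

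Of the 19 other fibroblast genes, edgeR called 0, 5 had an unadjusted p-value under 0.05, all lower in Thra1PV/+, and DESeq2 called 3. *Ccl11*, which encodes the eosinophil chemokine eotaxin, had 2.71 ± 2.27 CPM (SD, n = 4) in Thra1PV/+ and 23.9 ± 20.1 CPM (SD, n = 4) in WT endometrium, with a log2 fold change of -3.14 ± 0.76 (SE; edgeR adjusted p = 0.179). *Dcn*, which encodes the collagen-binding proteoglycan decorin, had 135 ± 124 CPM against 640 ± 315 CPM, with a log2 fold change of -2.24 ± 0.74 (SE; edgeR adjusted p = 0.355). The Thra1PV/+ libraries had 312, 20.3, 110 and 98.9 CPM of *Dcn* and the WT libraries 1049, 725, 365 and 422 CPM, without overlap, as for 2.49% of all tested genes in this direction.

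Of the 15 leukocyte genes, edgeR called 0, DESeq2 called 2, and 5 had an unadjusted p-value under 0.05 in edgeR, all higher in Thra1PV/+. Their summed level was 403 to 887 CPM in Thra1PV/+ and 376 to 524 CPM in WT libraries, with *Lyz2* and *Itgam* the most abundant.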
